A study of Mus musculus with 15 samples.

Results

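The cell cycle and DNA replication genes described here are 39 genes of known phase, 17 of G1 and S phase and 22 of G2 and mitosis, read across fibroblasts that expressed 1 of 4 C/EBP transcription factors or carried an empty vector. They were chosen by name from what is known of their function, with earlier results of these data already known. A gene was read through each probe set that the array annotation maps to its symbol alone. Of the 39 genes, 36 had such a probe set, and 35 (15 of G1 and S phase and 20 of G2 and mitosis) were bright enough to be tested, out of 8251 genes named on the array and 5338 tested. The 36 genes had 48 probe sets, and 41 of these were tested. Each of the 41 exceeded the signal filter of 1092.06 units on all 15 arrays, so none of them entered the test through 1 group. Mcm6, a subunit of the replicative helicase, had 1 probe set, which lay under the filter and at the floor of 189.652 units on 14 arrays. The probe set for Tyms, thymidylate synthase, also matches Tyms-ps, and none was named for Ccnb1 or Bub1b.

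The cells were NIH 3T3, an immortal line of mouse embryonic fibroblasts. They had been transfected with the plasmid pMTCB6+, in which a metallothionein promoter that zinc switches on drives the cDNA of 1 human C/EBP (α, β, δ or ε), or with the same plasmid without insert (vector). Transfectants were selected with G418, and the labels describe them as polyclonal clones screened by Western blot for the protein. Cells of all 5 groups, vector included, received zinc sulphate for 16 h before total RNA was taken, so no group shows the cells without zinc. Each group had 3 arrays (Affymetrix MG_74Av2), called array 1, 2 and 3 after the sample titles. The labels speak of triplicate clones without saying whether each came from a transfection of its own, and the p-values measure only the spread between these samples.

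Cells enter S phase when cyclin D and cyclin E kinases inactivate the retinoblastoma proteins and free E2F factors, which switch on genes for origin licensing, replication and nucleotide supply. Genes of G2 and mitosis peak later, and many of their promoters carry CCAAT boxes, bound by NF-Y, and a cell cycle homology region, through which the DREAM and B-MYB complexes silence them in resting cells and activate them in dividing ones. C/EBPα is known to restrain division of fat, liver and myeloid precursors, and C/EBPβ and C/EBPδ act early in the fat cell programme, when growth-arrested precursors divide again.

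The promoters of the 7 members that passed a test described below and that have a single start in the RefSeq table are printed here. Each runs from 250 bases before to 50 bases after the start of the transcript, 5′ to 3′ on the strand of the gene, in the build GRCm38.p6. Capitals mark matches, on either strand, to TTTGAA (the cell cycle homology region), to TTTCGCG or TTTGGCG (E2F), to CCAAT, and to TTGCGCAA, TTGCGAAA or TTGCACAA (forms bound by C/EBPs). Ccnd1 and Ccna2 also passed a test and are not in the table. The windows are Rrm2 at chr12:24708004-24708303 (plus strand), Mcm3 at chr1:20820263-20820562 (minus strand), Plk1 at chr7:122159185-122159484 (plus strand), Cdt1 at chr8:122567765-122568064 (plus strand), Top2a at chr11:99024140-99024439 (minus strand), Ccne1 at chr7:38107441-38107740 (minus strand) and Cks2 at chr13:51644982-51645281 (plus strand).
Rrm2: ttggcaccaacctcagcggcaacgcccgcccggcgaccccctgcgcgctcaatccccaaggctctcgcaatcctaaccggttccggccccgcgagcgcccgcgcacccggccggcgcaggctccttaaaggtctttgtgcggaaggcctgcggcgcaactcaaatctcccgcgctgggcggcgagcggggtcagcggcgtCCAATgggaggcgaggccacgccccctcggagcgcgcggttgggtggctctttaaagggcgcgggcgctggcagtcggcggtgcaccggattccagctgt
Mcm3: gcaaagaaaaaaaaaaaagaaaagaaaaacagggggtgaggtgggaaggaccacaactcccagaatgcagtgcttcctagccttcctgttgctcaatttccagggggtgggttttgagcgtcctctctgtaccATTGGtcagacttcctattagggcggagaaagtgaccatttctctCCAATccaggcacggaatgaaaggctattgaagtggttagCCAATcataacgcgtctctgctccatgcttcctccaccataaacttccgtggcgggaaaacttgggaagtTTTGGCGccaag
Plk1: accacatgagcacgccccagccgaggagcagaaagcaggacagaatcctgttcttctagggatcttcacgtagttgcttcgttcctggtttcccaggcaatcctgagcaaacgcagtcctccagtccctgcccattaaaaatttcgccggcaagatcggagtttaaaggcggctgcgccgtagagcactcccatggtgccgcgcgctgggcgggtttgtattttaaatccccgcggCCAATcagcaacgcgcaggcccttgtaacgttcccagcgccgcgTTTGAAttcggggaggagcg
Cdt1: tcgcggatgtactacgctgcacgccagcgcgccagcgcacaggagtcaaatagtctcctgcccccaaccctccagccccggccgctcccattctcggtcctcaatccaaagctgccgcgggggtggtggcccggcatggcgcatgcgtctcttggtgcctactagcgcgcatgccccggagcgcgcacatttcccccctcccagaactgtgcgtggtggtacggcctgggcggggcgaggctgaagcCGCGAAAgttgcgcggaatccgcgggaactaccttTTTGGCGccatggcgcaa
Top2a: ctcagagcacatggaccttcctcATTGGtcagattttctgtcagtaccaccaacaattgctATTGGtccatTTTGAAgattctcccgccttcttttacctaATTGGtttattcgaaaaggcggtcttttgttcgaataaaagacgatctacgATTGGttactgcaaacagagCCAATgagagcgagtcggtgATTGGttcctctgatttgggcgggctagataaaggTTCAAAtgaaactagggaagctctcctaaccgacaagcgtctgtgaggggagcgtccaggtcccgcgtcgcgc
Ccne1: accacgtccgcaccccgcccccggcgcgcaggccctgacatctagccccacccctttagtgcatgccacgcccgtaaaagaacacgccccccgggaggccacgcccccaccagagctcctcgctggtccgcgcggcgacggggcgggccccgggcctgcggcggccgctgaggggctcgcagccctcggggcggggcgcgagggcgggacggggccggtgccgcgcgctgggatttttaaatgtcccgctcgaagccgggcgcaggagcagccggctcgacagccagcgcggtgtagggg
Cks2: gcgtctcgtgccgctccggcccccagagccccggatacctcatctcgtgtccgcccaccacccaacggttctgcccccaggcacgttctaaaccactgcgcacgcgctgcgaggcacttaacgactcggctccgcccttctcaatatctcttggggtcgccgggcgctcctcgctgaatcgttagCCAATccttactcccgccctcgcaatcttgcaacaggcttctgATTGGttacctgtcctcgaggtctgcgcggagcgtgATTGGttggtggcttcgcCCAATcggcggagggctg

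Counted from the start of the transcript, with its first base as 1, Plk1 and Top2a had the cell cycle homology letters, in Plk1 at bases 31 to 36 and in Top2a at 179 to 174 and, on the other strand, at 23 to 18 bases before the start. E2F letters lay in Cdt1, from 3 bases before the start to base 4 and at bases 33 to 39, and in Mcm3 at bases 39 to 45. Rrm2 had 1 CCAAT, at 50 to 46 bases before the start, and Top2a 6. The Ccne1 window held none of the letters searched. Over all members, 33 had 1 or more windows in the table (15 of G1 and S phase and 18 of G2 and mitosis), which holds 32851 windows in all. A gene was counted if any of its windows matched, and 3 genes had several windows. The cell cycle homology letters were found in 12 of the 18 genes of G2 and mitosis (66.7%), in 2 of the 15 of G1 and S phase (13.3%) and in 17.9% of all windows. E2F letters were found in 6 of the 15 genes of G1 and S phase, all of them licensing, helicase or ligase genes, in 1 of G2 and mitosis (Cdk1, 5.56%) and in 2.37% of all windows. CCAAT was in 83.3% of the genes of G2 and mitosis, 60.0% of those of G1 and S phase and 37.4% of all windows. No member window held the C/EBP letters, which 1.36% of all windows held. A match is a description of these letters and does not show that a factor binds there.

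**Figure D1:**
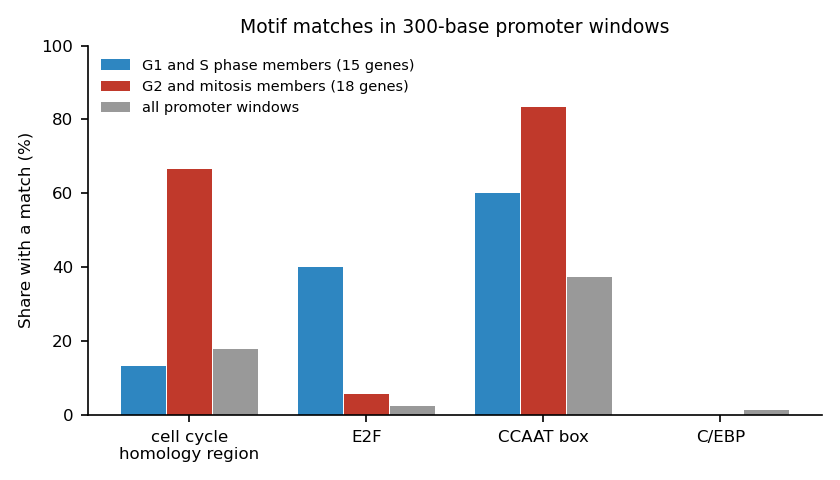
Share with at least 1 match to each motif in promoter windows of 300 bases. Bars give member genes of G1 and S phase (blue), member genes of G2 and mitosis (red) and all windows of the table (grey). A gene counts if any of its windows matched, and 3 member genes had several windows. The cell cycle homology region is at 66.7% in genes of G2 and mitosis against 17.9% of all windows, E2F in 6 of 15 genes of G1 and S phase against 2.37%, and the C/EBP letters at 0 in both.

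The deposited signals had array medians between 992.25 and 1149.7 units, and each array was scaled to a common median. Of 10 fibroblast markers, 9 passed the signal filter, and Vim lay under it. Their summed signal was 116775 to 151366 units in vector, 97269 to 122044 in C/EBPα, 145153 to 199060 in C/EBPβ, 116006 to 123416 in C/EBPδ and 120422 to 153582 in C/EBPε. Of the 9, limma called 1 lower in C/EBPα, 3 higher in C/EBPβ, among them the collagen gene Col3a1 (2.24-fold), and Col3a1 alone higher in C/EBPε (2.19-fold). Col3a1 passed the filter on 8 arrays, those of C/EBPβ and C/EBPε among them and none of C/EBPδ, so its rises are descriptions. Of the adipocyte markers, 3 passed the filter. Pparg rose in C/EBPα, a call lost with no floor (adjusted p 0.0619), but it passed the filter on the 3 C/EBPα arrays alone. Lpl, which passed it on 7 arrays and on none of vector or C/EBPβ, rose in all 4 groups. Its C/EBPβ and C/EBPε calls were lost at a floor on the 40th percentile (adjusted p 0.252 and 0.0554). The C/EBPβ call was also lost in a fit to its own groups (0.0509). The list summed to 15478 to 19785 units in C/EBPα and to 4623 to 5192 in vector, 5106 to 6022 in C/EBPβ, 6067 to 6582 in C/EBPδ and 5939 to 7728 in C/EBPε. The myeloid and lymphoid markers (3 passed) summed to 10924 to 11377 units in vector and, over the 12 other arrays, to 7482 to 11225, with Ptprc, Cd3e and Itgam under the filter. Cd68 fell 4.05-fold in C/EBPα and 2.76-fold in C/EBPε, and less far in C/EBPβ (limma adjusted p 4.85e-04). It passed the filter on 11 arrays and on none of C/EBPα. Lyz2 was 3.69-fold higher in C/EBPα. As with Pparg, only the 3 C/EBPα arrays brought Lyz2 past the filter, so both rises are descriptions and no evidence. The epithelial ones (1 passed) summed to 2898 to 4695 units over all groups, with Epcam and the keratins under it. Their part in the values below was not tested. The probe sets of mouse Cebpa, Cebpb and Cebpd do not measure the human cDNAs by design and were not used to check the labels. In cultures of cells at all phases, fewer cells in a phase and less RNA per cell cannot be told apart.

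At an adjusted p of 0.05, 6 of the 41 member probe sets (14.6%) differed across the 5 groups in limma's F-test, beside 16.5% of all 6963 probe sets tested. They belonged to Rrm2, Mcm3, Plk1, Ccnd1 and Cdt1 (which has 2 probe sets, both called), so 5 of the 6 were of G1 and S phase. Of 15 fits that left out 1 array, Cdt1 lost this F-test call in 12 (94024_at) and 11 (161787_f_at). Ccnd1 lost it in 8, Mcm3 in 6, Plk1 in 4 and Rrm2 in 0. Against vector, 3 member probe sets (7.32%) were called in C/EBPα, 2 higher and 1 lower, where 14.3% of all probe sets were (7.17% up and 7.15% down). In C/EBPβ 5 (12.2%) were called, all higher, where 9.31% of all probe sets were (5.13% up and 4.18% down). In C/EBPδ 0 of 41 were called and 3 had an unadjusted p under 0.05, where 0.359% of all were called. In C/EBPε 7 (17.1%) were called, 5 higher and 2 lower, where 16.3% of all were (9.38% up and 6.91% down). Apart from C/EBPβ these shares lay near or below those of all probe sets, and in this fit the counts of calls do not set the members apart. All 3 arrays of a group lay above all vector arrays for 4, 10, 8 and 10 of the 41 probe sets in C/EBPα, C/EBPβ, C/EBPδ and C/EBPε, beside 14.4%, 15.5%, 6.94% and 18.0% of all probe sets, and all below for 5, 3, 1 and 3, beside 13.7%, 11.7%, 4.77% and 11.8%. As a share, members above vector were more frequent than all probe sets in C/EBPβ, C/EBPδ and C/EBPε and less frequent in C/EBPα. Members below vector were less frequent in all 4 groups. These shares were not tested. Together, 8 genes were called in at least 1 group (Rrm2, Ccnd1, Ccne1, Cdt1, Ccna2, Cks2, Plk1 and Top2a) and 27 in none. These calls covered 10 of the 41 probe sets (24.4%). The matching share over all probe sets was not computed, so this count is not read as a trait of the members. The 4 comparisons share the vector arrays, so a low or high vector array enters all of them.

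**Figure D2:**
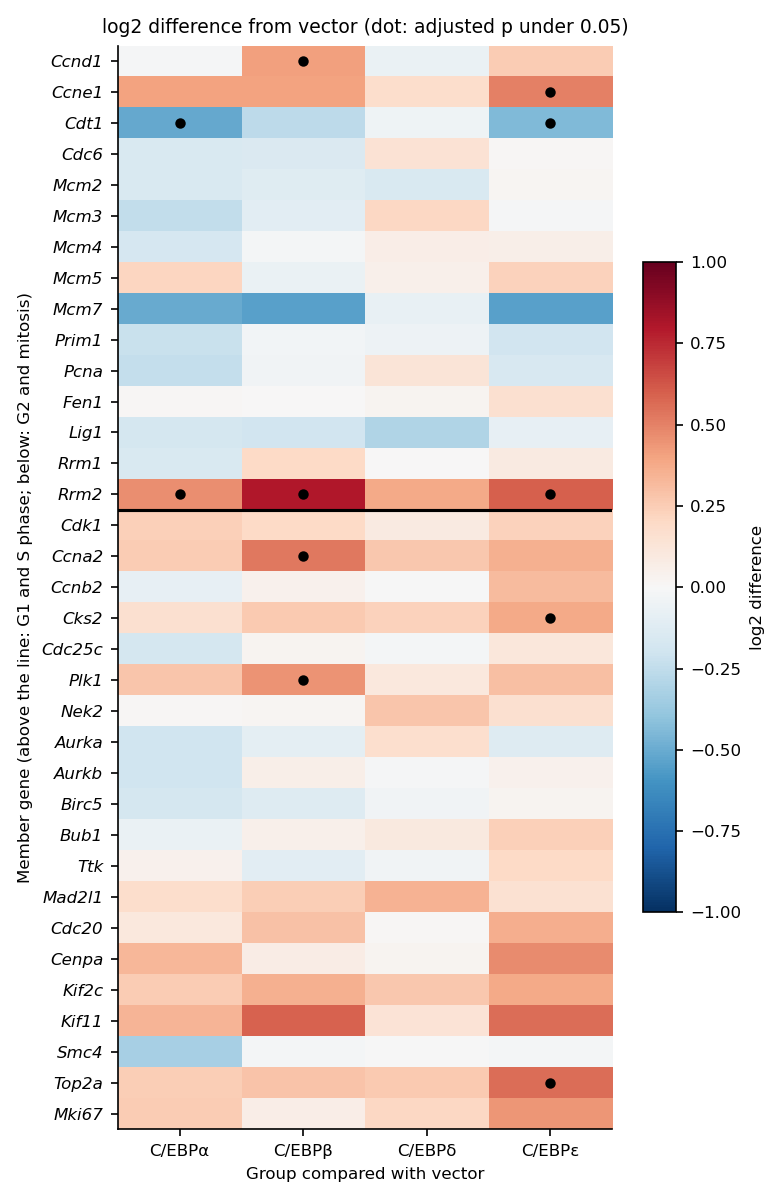
Log2 difference from vector (colour, from -1 to 1) of the 35 tested genes (rows, each by its brightest tested probe set) in the 4 C/EBP groups (columns). Dots mark an adjusted p under 0.05, which Rrm2 reached in C/EBPα, C/EBPβ and C/EBPε and no gene reached in C/EBPδ. Mcm3 and the other probe sets of Plk1, Cdt1 and Ccnd1 are in the text.

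Rrm2, which encodes the small, cell cycle-regulated subunit of ribonucleotide reductase and so limits the supply of deoxynucleotides, had the smallest adjusted p of the members in the F-test across the 5 groups (0.00416). Its signal was 3996, 5350.2 and 5272.5 units in vector, 6837, 6402 and 6718 in C/EBPα, 7796, 8898 and 8571 in C/EBPβ, 5856, 6429.7 and 6608 in C/EBPδ and 7169, 8301 and 6589 in C/EBPε. All 12 C/EBP arrays lay above all 3 vector arrays, and the C/EBPβ arrays also lay above those of C/EBPα and C/EBPδ. Against vector, Rrm2 rose 1.74-fold in C/EBPβ (log2 difference 0.80 ± 0.13, SE of the fit, adjusted p 9.66e-04), 1.52-fold in C/EBPε (0.60 ± 0.13, 0.00528) and 1.38-fold in C/EBPα (0.46 ± 0.13, 0.0273). In C/EBPδ the log2 difference was 0.38 ± 0.13, with a 95% interval of 0.10 to 0.66 and an adjusted p of 0.513. The F-test of Rrm2 among the 4 C/EBPs missed the threshold (adjusted p 0.160). The C/EBPβ call held without any one array and under every other setting tried, and the C/EBPε call held without any one array. Its F-test was lost without the 5 arrays numbered 1 (0.0763). The C/EBPα call was lost without vector array 1 (0.145), C/EBPα array 1 (0.0767), C/EBPα array 2 (0.0514) or C/EBPα array 3 (0.0775). Rrm1, the large subunit, did not pass a test, with differences from -0.15 in C/EBPα to 0.20 in C/EBPβ. A further probe set of Rrm1 lay under the filter.

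The G1 cyclins were read by 3 probe sets. Ccnd1, the cyclin D1 that links growth factors to CDK4 and CDK6, gave 5874, 6711 and 6349 units in vector, 7007, 5279.5 and 6580.3 in C/EBPα, 8437.5, 8099 and 8579.9 in C/EBPβ, 6356, 5782 and 5914 in C/EBPδ and 7196, 7983 and 7349 in C/EBPε on its brighter probe set (94232_at). The C/EBPβ arrays lay above all arrays of the other groups, and the C/EBPα and C/EBPδ arrays overlapped with vector. Ccnd1 rose 1.33-fold in C/EBPβ (log2 difference 0.41 ± 0.12, adjusted p 0.0439). That call was lost without any one of vector arrays 1 and 3, C/EBPα array 3, C/EBPβ arrays 1, 2 and 3, C/EBPδ arrays 1, 2 and 3 and C/EBPε array 3 (adjusted p 0.0536 to 0.147) and without the trend (0.0607). On its other probe set (94231_at) Ccnd1 gave 3441, 2568.5 and 3291 units in vector and 3877, 3873 and 4288 in C/EBPβ, a log2 difference of 0.38 ± 0.17 with an adjusted p of 0.183. Those groups did not overlap either, and the estimate was close to that of the first probe set. Ccne1, the cyclin E1 that activates CDK2 at the start of S phase, gave 4224, 3967 and 4334 units in vector, 5306, 6700.2 and 4706.5 in C/EBPα, 5241, 5081 and 6321 in C/EBPβ, 4337, 4922 and 4939 in C/EBPδ and 4978, 6409 and 6523 in C/EBPε. All 12 C/EBP arrays lay above the vector arrays, C/EBPδ array 1 by the least. Ccne1 rose 1.42-fold in C/EBPε (0.51 ± 0.15, adjusted p 0.0294), a call that was lost without any one of vector arrays 1, 2 and 3 and C/EBPε arrays 2 and 3 (adjusted p 0.0618 to 0.115), with quantile scaling (0.0644) and without the signal filter (0.0507). In C/EBPα and C/EBPβ its differences were 0.40 and 0.40 (adjusted p 0.0925 and 0.110).

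Cdt1, the licensing factor that loads the MCM helicase onto origins and is destroyed once S phase begins, was the 1 member gene that fell. Its brighter probe set (94024_at) gave 13169, 16409.9 and 11746.5 units in vector, 9418, 10827 and 8583 in C/EBPα, 10450.1, 12153.5 and 11581 in C/EBPβ, 12937, 14516 and 12310.1 in C/EBPδ and 9162, 11404 and 9632.5 in C/EBPε. The C/EBPα and C/EBPε arrays all lay below the 3 vector arrays, and C/EBPδ overlapped with vector. On this probe set Cdt1 fell 1.43-fold in C/EBPα (log2 difference -0.51 ± 0.14, adjusted p 0.0222) and 1.36-fold in C/EBPε (-0.44 ± 0.14, 0.0429). On the other (161787_f_at) it gave 5086, 5960.5 and 4326 units in vector, 3926.5, 4179 and 3409 in C/EBPα, 3861, 3554 and 4307 in C/EBPβ, 4948, 5227 and 4721 in C/EBPδ and 3149, 3783 and 3807 in C/EBPε, and fell 1.42-fold in C/EBPε (-0.51 ± 0.14, adjusted p 0.0211), with -0.41 ± 0.14 in C/EBPα (adjusted p 0.0681). On it the C/EBPα, C/EBPβ and C/EBPε arrays all lay below the vector arrays. In C/EBPδ both probe sets stayed near vector, at -0.04 and -0.03. The C/EBPα call was lost without vector array 2 (0.0996), C/EBPα array 1 (0.0609) or C/EBPα array 3 (0.105). The C/EBPε calls were lost without any one of vector arrays 1 and 2, C/EBPα array 1, C/EBPβ array 3, C/EBPδ arrays 1 and 3 and C/EBPε arrays 1 and 3 (adjusted p 0.0512 to 0.154) on the first probe set, and without vector array 1 (0.0575), vector array 2 (0.0812) or C/EBPε array 1 (0.0804) on the other. The first also missed the threshold without the filter, with a filter at the 20th percentile and without the trend (0.0691, 0.0516 and 0.0635). Cdc6, the other licensing factor measured, did not pass, with log2 differences from -0.16 in C/EBPα to 0.14 in C/EBPδ.

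The MCM helicase, the hexamer that unwinds DNA at the fork, was read through Mcm2, Mcm3, Mcm4, Mcm5 and Mcm7, and no subunit differed from vector past the threshold. Mcm3 differed among the C/EBP groups. It gave 8279, 7800.2 and 7364 units in vector, 8303, 6051 and 5553 in C/EBPα, 7844, 7383 and 8117 in C/EBPβ, 9308, 9618 and 10238 in C/EBPδ and 7368, 5781 and 5023 in C/EBPε on the probe set 100062_at. The C/EBPδ arrays lay above all arrays of the other 4 groups. Mcm3 was 0.57 ± 0.16 higher on the log2 scale in C/EBPδ than in C/EBPα (adjusted p 0.0298), and in C/EBPε it differed from C/EBPδ by -0.70 ± 0.16 (adjusted p 0.00974). Its probe set 160496_s_at gave 14895.5, 16486 and 13783 units in vector, 14021.5, 11668 and 12371 in C/EBPα, 14289.7, 13006 and 14581 in C/EBPβ, 17923, 16955 and 17221 in C/EBPδ and 14949, 15336 and 14398 in C/EBPε. Here the C/EBPδ arrays also lay above all others. The difference between C/EBPδ and C/EBPα was 0.46 ± 0.11 (adjusted p 0.0157) and that between C/EBPε and C/EBPδ was -0.22 ± 0.11 (adjusted p 0.248). The difference of C/EBPδ from C/EBPα thus passed on both probe sets and that from C/EBPε on 1. Without C/EBPε array 3 (0.0619) the C/EBPε call was lost, and the C/EBPα call was lost without any one of C/EBPα arrays 2 and 3 and C/EBPδ arrays 1, 2 and 3 (adjusted p 0.0598 to 0.155) on the first probe set and without C/EBPα array 2 (0.0800), C/EBPα array 3 (0.0598), C/EBPδ array 1 (0.0603) or C/EBPδ array 3 (0.0544) on the other. On the first it also missed with quantile scaling, with no scaling and without the filter (0.0639, 0.0502 and 0.0648). The F-test of Mcm3 100062_at across the 5 groups (adjusted p 0.0284) was lost without any one of C/EBPα array 2, C/EBPδ arrays 1, 2 and 3 and C/EBPε arrays 2 and 3 (adjusted p 0.0522 to 0.0980). Mcm7 gave 11813, 14289 and 13097 units in vector, 7554, 8988 and 11443.5 in C/EBPα, 6869, 11677 and 8916 in C/EBPβ, 11303, 14346 and 11626 in C/EBPδ and 6655.5, 10178.5 and 10492 in C/EBPε. Its C/EBPα, C/EBPβ and C/EBPε arrays all lay below the vector arrays, with log2 differences of -0.50, -0.54 and -0.55, and adjusted p-values of 0.131, 0.125 and 0.0874. Mcm2, Mcm4 and Mcm5 differed from vector by -0.17 to 0.23.

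None of the 4 replication fork genes measured (Pcna, Fen1, Lig1 and Prim1) passed a test, and their log2 differences from vector lay between -0.30 (Lig1 in C/EBPδ) and 0.16 (Fen1 in C/EBPε). Pcna, the sliding clamp that holds DNA polymerases on the template and a common marker of dividing cells, gave 17130.0, 22727 and 19132 units in vector, 16450.2, 15402 and 18004 in C/EBPα, 17525, 21448 and 18384 in C/EBPβ, 19394.5, 23710.0 and 21232.5 in C/EBPδ and 14773, 20683 and 17563 in C/EBPε. The groups overlapped, apart from C/EBPα and C/EBPδ, whose arrays did not. The 95% intervals of Pcna against vector were -0.55 to 0.08 in C/EBPα, -0.35 to 0.27 in C/EBPβ, -0.18 to 0.44 in C/EBPδ and -0.47 to 0.15 in C/EBPε.

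Among the mitotic kinase CDK1 and its cyclins and cofactors, Ccna2 and Cks2 passed. Ccna2, the cyclin A2 of S phase and G2, gave 7348, 7937 and 6501 units in vector, 8652, 9598 and 7728 in C/EBPα, 10473.5, 9865 and 11030.5 in C/EBPβ, 7490.5, 9639 and 9206 in C/EBPδ and 8445, 10587.5 and 8933 in C/EBPε. The C/EBPβ and C/EBPε arrays lay above all vector arrays, and those of C/EBPα and C/EBPδ overlapped with them. Ccna2 rose 1.44-fold in C/EBPβ (log2 difference 0.53 ± 0.14, adjusted p 0.0213), a call that was lost without vector array 1 (0.0531), vector array 3 (0.103), C/EBPβ array 1 (0.0541) or C/EBPβ array 3 (0.0911). Cks2, the small subunit bound to CDK1, gave 7911.5, 9722.5 and 9612.5 units in vector, 10186.5, 9213 and 10908 in C/EBPα, 10445, 11377 and 10792 in C/EBPβ, 10148, 11305.5 and 10474.5 in C/EBPδ and 10867, 12915 and 11506.5 in C/EBPε. C/EBPα overlapped with vector, while the arrays of the other 3 C/EBPs all lay above it. Cks2 rose 1.30-fold in C/EBPε (0.38 ± 0.12, adjusted p 0.0417), and that call was lost without any one of vector arrays 1 and 3, C/EBPα array 1, C/EBPβ arrays 1 and 3, C/EBPδ arrays 1 and 3 and C/EBPε arrays 2 and 3 (adjusted p up to 0.182) and without the trend (0.0592). Cdk1, Ccnb2 and Cdc25c did not pass, at 0.23, 0.31 and 0.11 in C/EBPε, the last on the brighter of its 2 probe sets.

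Plk1, the polo-like kinase that drives entry into mitosis and spindle assembly, was read by 3 probe sets. The probe set 93099_f_at gave 2737, 2455 and 1739.8 units in vector, 3646, 3749 and 3086 in C/EBPα, 3121, 4267 and 3793 in C/EBPβ, 2835, 2750.4 and 3016 in C/EBPδ and 3742, 3373 and 3202 in C/EBPε. All 12 C/EBP arrays lay above the vector arrays, the C/EBPδ ones by the least. On it Plk1 rose 1.63-fold in C/EBPβ (log2 difference 0.70 ± 0.17, adjusted p 0.0137), 1.53-fold in C/EBPα (0.62 ± 0.17, 0.0195) and 1.51-fold in C/EBPε (0.60 ± 0.17, 0.0222). The probe set 101350_g_at gave 4846, 4888 and 4378 units in vector, 5593, 5891 and 5606 in C/EBPα, 5346, 7143 and 6892 in C/EBPβ, 4852, 5363 and 4996 in C/EBPδ and 6003, 5657 and 5693 in C/EBPε, and passed in C/EBPβ (1.36-fold, 0.45 ± 0.12, adjusted p 0.0303). The probe set 161292_f_at gave 5149.5, 4435 and 2756 units in vector and differed by 0.13 to 0.24, with no call, so the 3 probe sets share a sign and disagree in size. Vector array 3 was the lowest of all arrays on the first. The calls there were lost without vector array 3 (0.110), C/EBPα array 1 (0.0621) or C/EBPα array 2 (0.0735) for C/EBPα, without vector array 3 (0.0759), C/EBPβ array 2 (0.0690) or C/EBPβ array 3 (0.0550) for C/EBPβ and without vector array 3 (0.122) or C/EBPε array 1 (0.0695) for C/EBPε. On the second, the C/EBPβ call was lost without vector array 1 (0.0621), vector array 3 (0.121), C/EBPβ array 2 (0.130) or C/EBPβ array 3 (0.129). The other mitotic kinases and the passenger complex (Nek2, Aurka, Aurkb and Birc5, which encodes survivin) did not pass, at -0.20 to 0.28.

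No spindle checkpoint gene passed a test. Cdc20, the activator of the anaphase-promoting complex, gave 18511, 18397 and 15850.3 units in vector, 16593, 20213 and 19915 in C/EBPα, 19840.3, 24017 and 20897 in C/EBPβ, 15858, 20389 and 17164 in C/EBPδ and 20371, 22724 and 24879 in C/EBPε. Its C/EBPβ and C/EBPε arrays lay above all vector arrays, with log2 differences of 0.29 ± 0.13 and 0.36 ± 0.13 (adjusted p 0.202 and 0.0776). Mad2l1, which holds Cdc20 inactive until chromosomes are attached, had its highest difference in C/EBPδ, at 0.35, and Bub1 and Ttk, both checkpoint kinases, lay between -0.11 and 0.24 in all groups. Another 2 probe sets of Bub1 lay under the filter.

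Of the 6 genes of chromosomes and spindle, Top2a passed. Top2a, the topoisomerase that untangles sister chromatids, gave 9097, 11368 and 8842 units in vector, 11242, 11900.0 and 11357 in C/EBPα, 11438, 13216 and 10894 in C/EBPβ, 11313, 13021 and 10780.0 in C/EBPδ and 12696, 16832 and 13653 in C/EBPε. The C/EBPε arrays lay above all vector arrays, and the other groups overlapped with vector. Top2a rose 1.47-fold in C/EBPε (log2 difference 0.56 ± 0.14, adjusted p 0.0106), which was lost without vector array 3 (0.0555) or C/EBPε array 2 (0.0554). Mki67, the Ki-67 antigen that coats mitotic chromosomes, gave 3565, 4858 and 3728 units in vector, 4462, 4594.5 and 5326 in C/EBPα, 3889.5, 4868 and 3945 in C/EBPβ, 4534, 5116 and 4248 in C/EBPδ and 4867, 6914 and 4775 in C/EBPε, and its C/EBPε difference of 0.44 ± 0.17 had an adjusted p of 0.0855. Kif11, the kinesin that separates spindle poles, had the widest interval of the members, -0.07 to 1.24 in C/EBPβ around a difference of 0.59. Cenpa and Kif2c, a centromeric histone and a kinesin that takes microtubules apart, reached 0.47 and 0.38 in C/EBPε without passing (adjusted p 0.0674 and 0.0920), and Smc4, of condensin, lay at -0.34 in C/EBPα and at -0.02 in C/EBPβ and C/EBPε.

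**Figure D3:**
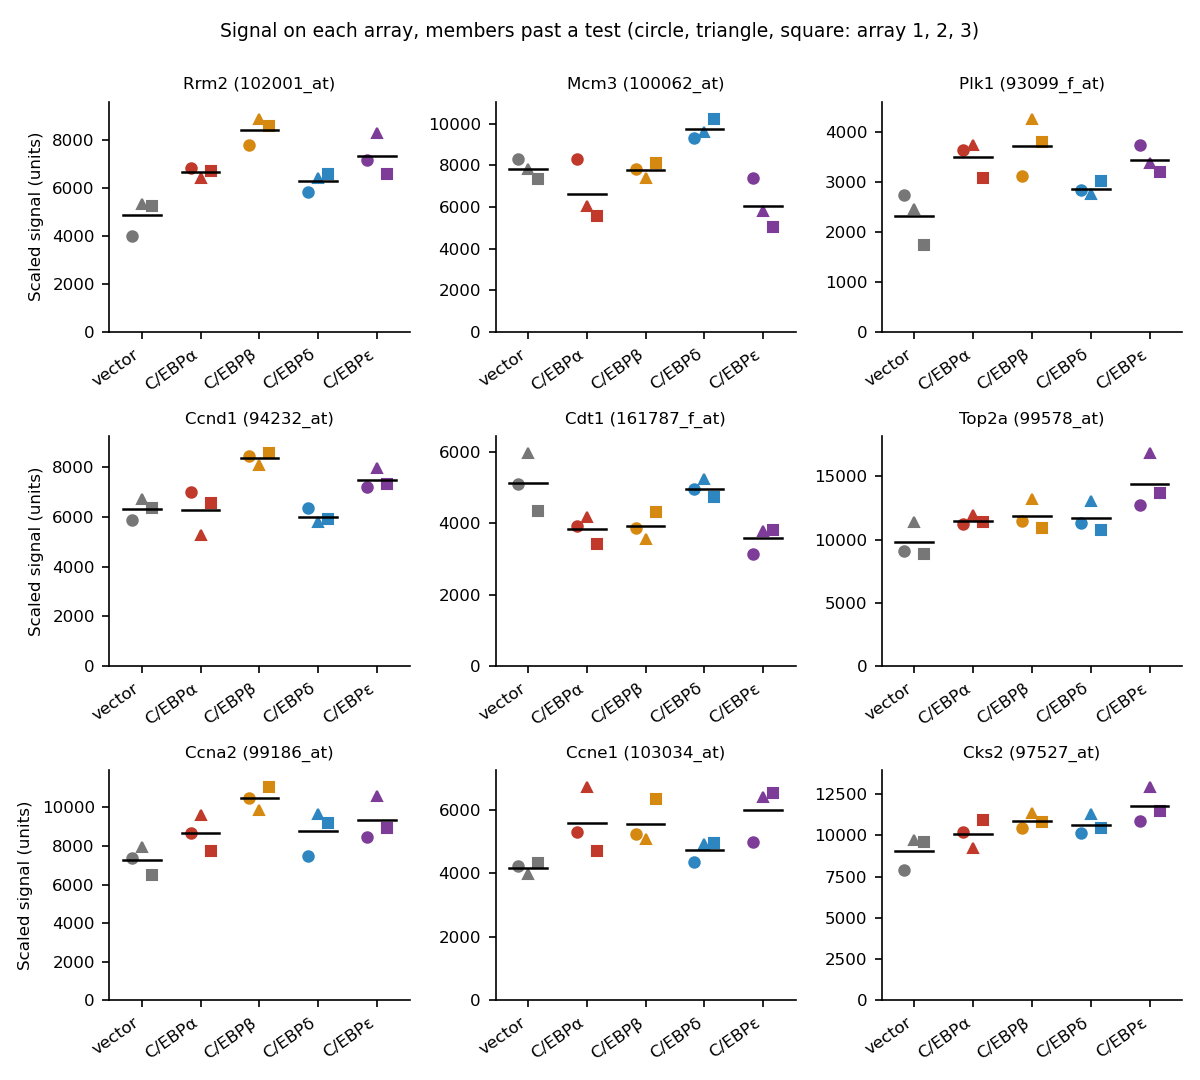
Scaled signal (in units, axes from 0) on each of the 15 arrays for the probe set with the smallest F-test p of each of the 9 members past a test, by group, with array 1 as a circle, 2 as a triangle, 3 as a square and the group mean as a line. Rrm2 stands between 5856 and 8898 units on the C/EBP arrays and between 3996 and 5350.2 on the vector arrays, and the Cdt1 arrays of C/EBPα, C/EBPβ and C/EBPε lie below the 3 vector arrays.

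The support for these calls was uneven. In a fit to the arrays of vector and 1 C/EBP alone, Rrm2 in C/EBPβ was the 1 call of 15 against vector that passed. Without the 5 arrays numbered 1, the calls that passed were Rrm2 in C/EBPβ, Plk1 on 93099_f_at in C/EBPα and C/EBPβ, and Plk1 on 101350_g_at in C/EBPβ. Across the 5 groups, 6 calls became 3 without vector array 1, C/EBPβ array 3 or C/EBPδ array 1, and 2 without C/EBPβ array 2, C/EBPδ array 2 or 3 or C/EBPε array 3. In C/EBPα, 3 calls became 0 without C/EBPα array 1 and 1 without C/EBPα array 2 or 3. In C/EBPβ, 5 became 1 without vector array 3 or C/EBPβ array 3, 2 without vector array 1 or C/EBPβ array 2, and 3 without C/EBPβ array 1. In C/EBPε, 7 became 3 without vector array 1 or 3 and 4 without C/EBPε array 2 or 3. Calls among all probe sets moved as well, in C/EBPβ from 9.31% to 5.36% without C/EBPβ array 3. The fit also gave an interval for each difference, which measures only the spread between these samples. It was not adjusted for the number of probe sets. The 95% interval against vector lay inside a 2-fold change either way for 40, 38, 41 and 40 of the 41 probe sets in C/EBPα, C/EBPβ, C/EBPδ and C/EBPε, and inside a 1.5-fold change for 27, 25, 33 and 21. The exceptions at 2-fold were Kif11 in C/EBPα, C/EBPβ and C/EBPε, and Rrm2 and Plk1 (93099_f_at) in C/EBPβ.

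Both classes were then read side by side, each gene by its brightest tested probe set. In C/EBPα the median log2 difference from vector was -0.16 over the 15 genes of G1 and S phase and 0.13 over the 20 of G2 and mitosis, against 0.0036 over all probe sets tested. The medians were -0.04 and 0.07 in C/EBPβ (all 0.04), 0.03 and 0.10 in C/EBPδ (all 0.01) and 0.02 and 0.27 in C/EBPε (all 0.08). Genes of G2 and mitosis were higher than vector in 13, 16, 14 and 18 of 20 cases in C/EBPα, C/EBPβ, C/EBPδ and C/EBPε, and genes of G1 and S phase in 4, 5, 9 and 9 of 15. With quantile scaling, no scaling or scaling to the median ratio, the C/EBPε median of G1 and S phase turned to -0.01, -0.01 and -0.03, and the medians of G2 and mitosis kept their sign. These are descriptions of the lists, with no test, and the 4 comparisons share the vector arrays.

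As a level per array, each gene's log2 signal was set against its mean over the 15 arrays and averaged over the class. The level of G2 and mitosis minus that of G1 and S phase was -0.16, -0.12 and -0.10 on the vector arrays, 0.08, 0.0039 and 0.05 in C/EBPα, 0.03, 0.07 and -0.05 in C/EBPβ, -0.06, 0.00098 and -0.05 in C/EBPδ, and 0.10, 0.10 and 0.10 in C/EBPε. The 3 vector arrays thus lay below all 12 C/EBP arrays, and those of C/EBPε lay above all others. By class, the vector arrays overlapped with those of each C/EBP. Between C/EBPs, the C/EBPα arrays (highest -0.05) lay below those of C/EBPδ (lowest -0.02) for G1 and S phase, and below those of C/EBPε (0.0064 against 0.0233) for G2 and mitosis. The level of G2 and mitosis was -0.25, 0.04 and -0.16 on the vector arrays and 0.02, 0.28 and 0.10 in C/EBPε, and that of G1 and S phase was -0.09, 0.16 and -0.07 in vector and -0.08, 0.18 and -0.0042 in C/EBPε. Array 2 was highest for both classes in vector, C/EBPβ, C/EBPδ and C/EBPε, where the mean over all tested probe sets was also highest (0.07, 0.07, 0.04 and 0.09). There it had the lowest deposited median of its group (1003.7, 1018.35, 1046.9 and 992.25 units), so scaling to a common median raised it most. In C/EBPα array 2 had the highest deposited median (1128.2 units) and the lowest mean over all tested probe sets (-0.05). The part of array 2 and of the scaling in the class levels was not tested.

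**Figure D4:**
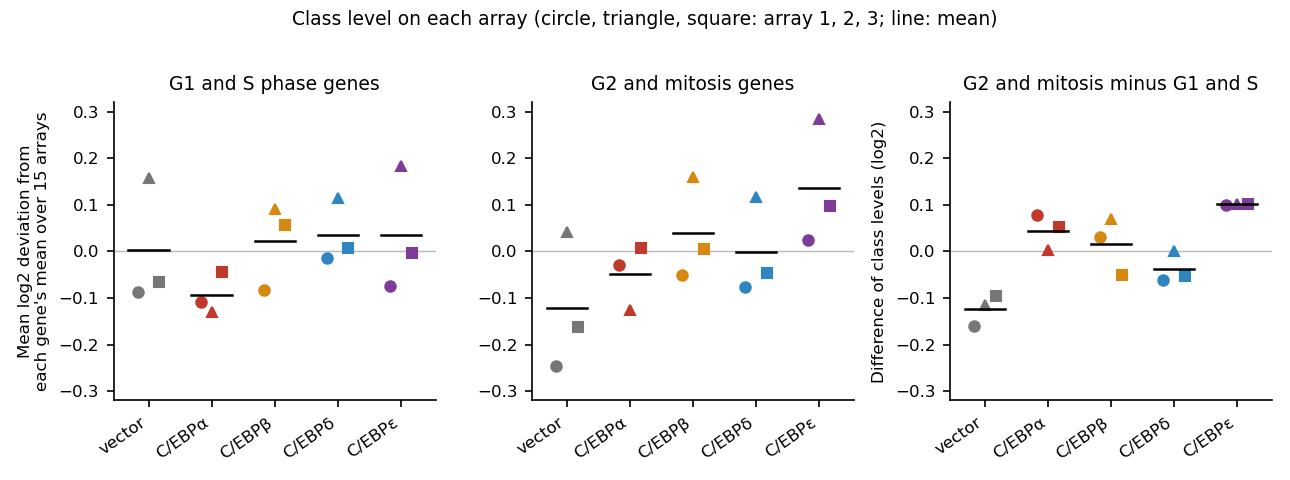
Mean log2 deviation per array of the 15 genes of G1 and S phase (left) and the 20 of G2 and mitosis (middle), and the second minus the first (right), by group, with arrays 1, 2 and 3 as circle, triangle and square and the group mean as a line. In each class alone the vector arrays overlap with each C/EBP group, while on the right the vector arrays are the 3 lowest, from -0.16 to -0.10.

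Between C/EBPs, 4 of the 41 member probe sets (9.76%) were called in at least 1 of the 6 pairs, beside 14.0% of all probe sets tested, and 2 (Mcm3 and Ccnd1) passed the F-test among the 4 C/EBPs, beside 10.2%. All of these calls set C/EBPδ against another C/EBP. Apart from Mcm3, Ccnd1 was lower in C/EBPδ than in C/EBPβ (log2 difference -0.48 ± 0.12, adjusted p 0.0301), and the arrays of both groups did not overlap. Cdt1 on 161787_f_at was lower in C/EBPε than in C/EBPδ (-0.48 ± 0.14, adjusted p 0.0494). The Ccnd1 call was lost without any one of C/EBPβ arrays 1, 2 and 3 and C/EBPδ arrays 1, 2 and 3 (adjusted p 0.0586 to 0.116), and the Cdt1 call without any one of vector array 1, C/EBPα arrays 1, 2 and 3, C/EBPβ arrays 1, 2 and 3, C/EBPδ arrays 1, 2 and 3 and C/EBPε arrays 1, 2 and 3 (adjusted p 0.0504 to 0.144). The 4 probe sets called in pairs became 2 without C/EBPα array 2 or 3, C/EBPβ array 2 or 3 or C/EBPδ array 2, and 1 without C/EBPδ array 1 or 3. The 2 in the F-test among the C/EBPs became 0 without any one C/EBPδ array or C/EBPε array 3, and 1 without vector array 3, C/EBPα array 3, any one C/EBPβ array or C/EBPε array 2. For C/EBPα against C/EBPβ, C/EBPα against C/EBPε and C/EBPβ against C/EBPε, limma called 0 of the 41, with 2, 3 and 6 at an unadjusted p under 0.05, beside 2.86%, 1.31% and 2.34% of all probe sets called. The pairs of C/EBPδ with C/EBPα, C/EBPβ and C/EBPε had 8.4%, 4.77% and 8.21% of all probe sets called.

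Several regulators of the cycle outside the 39 genes had larger differences from vector than any member. Of 7 CDK inhibitor genes on the array, 3 were tested. The F-test across the 5 groups called 2 of them, beside 16.5% of all probe sets, and they went in opposite directions. Cdkn2c, which encodes p18, an inhibitor of CDK4 and CDK6, gave 3928, 6122 and 5497 units in vector, 9942, 13702 and 14448 in C/EBPα, 5443, 8680.0 and 7104 in C/EBPβ, 6036, 7498 and 6489.7 in C/EBPδ and 10128, 15450.0 and 13479 in C/EBPε. The C/EBPα and C/EBPε arrays did not overlap with vector, and Cdkn2c rose 2.46-fold in C/EBPα (log2 difference 1.30 ± 0.21, adjusted p 3.74e-04) and 2.52-fold in C/EBPε (1.33 ± 0.21, 3.56e-04). Cdkn1a, which encodes p21, an inhibitor of CDK2 that p53 induces, gave 7016, 9036.5 and 7292 units in vector, 3912, 4000.4 and 4840.5 in C/EBPα, 4628, 6369 and 5754 in C/EBPβ, 6479.7, 7959 and 6882 in C/EBPδ and 3523, 4463 and 4551 in C/EBPε. The C/EBPα, C/EBPβ and C/EBPε arrays all lay below the vector arrays, and Cdkn1a fell 1.83-fold in C/EBPα (-0.87 ± 0.16, adjusted p 0.00101) and 1.86-fold in C/EBPε (-0.90 ± 0.16, 9.10e-04). Cdkn2d did not pass. These 4 calls held without any one array. The G1 cyclins, CDKs and MYC gave 1 call among 7 tested genes, Ccnd2, which fell 1.70-fold in C/EBPε (-0.76 ± 0.17, adjusted p 0.00545), where 16.3% of all probe sets were called. Of the 4 tested genes of the E2F and RB families, limma called 0 in the F-test across the 5 groups, with 0 at an unadjusted p under 0.05, and 0 against vector, with 1 at that level in C/EBPα and 1 in C/EBPβ. E2f1 stood at -0.62 ± 0.25 in C/EBPα (adjusted p 0.120).

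Other genes of replication and mitosis were read in the same way. Of 36 other S phase genes, 2 passed the F-test across the 5 groups, beside 16.5% of all probe sets tested. Pold2, a subunit of DNA polymerase delta, rose in C/EBPα and C/EBPβ (0.82 ± 0.22 and 1.13 ± 0.22, adjusted p 0.0149 and 0.00295), and Slbp, which binds histone mRNA, fell in C/EBPα (-0.47 ± 0.15, 0.0383). Of 37 other genes of G2 and mitosis, 4 passed it, beside the same 16.5%. Ccnf, cyclin F, which opposes the build-up of Cdc6 and other proteins in G2, went from 9389 ± 1349 units (SD over 3 arrays) in vector to 4456 ± 946.5 in C/EBPα, 4821 ± 1190.1 in C/EBPβ and 5802 ± 974 in C/EBPε, falls of 2.12-fold, 1.98-fold and 1.62-fold (adjusted p 9.21e-04, 0.00399 and 0.0209). Wee1, the kinase that holds CDK1 inactive, fell in C/EBPα (-0.57 ± 0.14, adjusted p 0.0130). The call of Pold2 in C/EBPα was lost without vector array 3 (0.0796) or C/EBPα array 3 (0.0662), of Slbp without any one of vector arrays 2 and 3, C/EBPα arrays 2 and 3, C/EBPβ array 3 and C/EBPδ array 3 (adjusted p 0.0519 to 0.153), of Ccnf in C/EBPε without vector array 2 (0.0751) or C/EBPε array 1 (0.0840) and of Wee1 without vector array 1 (0.0561) or C/EBPα array 2 (0.0564). Over the 36 other S phase genes the median log2 differences were -0.03, -0.01, 0.04 and 0.06 in C/EBPα, C/EBPβ, C/EBPδ and C/EBPε. Over the 37 other genes of G2 and mitosis they were -0.05, 0.16, 0.13 and 0.15. In C/EBPα both lists thus lay close together, where the members had -0.16 for G1 and S phase and 0.13 for G2 and mitosis.

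Of the 14 tested growth arrest and quiescence genes, 11 passed the F-test across the 5 groups, beside 16.5% of all probe sets. Of these 14, 7 were lower and 1 higher in C/EBPα, 6 and 2 in C/EBPβ, 7 and 2 in C/EBPε, and 0 were called by limma in C/EBPδ, with 3 at an unadjusted p under 0.05. The direction of this list was already known from earlier results of these data, so its count is no independent evidence. Gadd45g, a stress-induced inhibitor of CDK1, fell from 16233 ± 4916 units in vector to 745 ± 144 in C/EBPα, 3077.5 ± 967 in C/EBPβ and 603 ± 241 in C/EBPε (log2 -4.42 ± 0.27, -2.40 ± 0.27 and -4.78 ± 0.27), and was at 14992 ± 2045 in C/EBPδ. Gadd45g passed the signal filter on 9 arrays and on none of C/EBPα or C/EBPε, so its falls there are descriptions. Gadd45b, its relative, fell in the same groups, to 2722 ± 1233.5, 7295 ± 953 and 1054 ± 113 from 15935 ± 1453. Btg2, an antiproliferative gene that p53 induces, fell from 9973 ± 689 to 2978.5 ± 221, 4917 ± 831 and 2833 ± 223. The highest adjusted p of these falls was 0.00492, for Gadd45b in C/EBPβ, and all held without any one array. Lower growth arrest genes in C/EBPα, C/EBPβ and C/EBPε stood beside member differences of at most 0.80 on the log2 scale, and whether they are related was not tested.

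**Figure D5:**
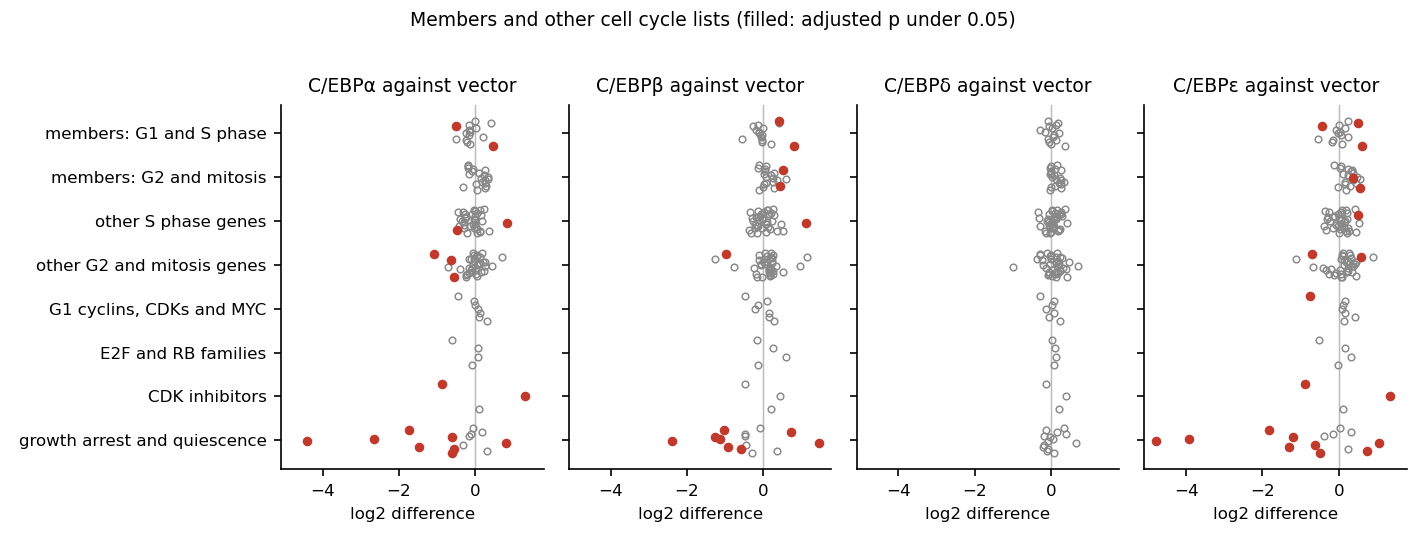
Log2 difference from vector of each tested gene of the members (top rows) and of 6 other cell cycle lists, 1 panel per C/EBP, with filled points at an adjusted p under 0.05. Members lie within 0.80 of 0 in all panels, and C/EBPδ has no filled point. Growth arrest genes reach -4.42 in C/EBPα and -4.78 in C/EBPε, both for Gadd45g, which lay under the signal filter on those arrays.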

How the data were processed

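Total RNA of 15 samples was measured on 1-colour arrays. The deposited values are a linear intensity per probe set, which the authors made with Affymetrix Microarray Suite, per the labels' protocols. Depth has no meaning for arrays, and 3 arrays per group limit the precision. The 66 control probe sets among 12488 were dropped. Arrays were scaled to a common median, a floor was set at the pooled 20th percentile (189.652 units), and values were put on the log2 scale. Probe sets above the pooled median (1092.06 units) on at least 3 arrays were tested, 6963 in all. Of the 12422 probe sets used, 10833 name 1 gene, 396 several and 1193 none, and those with several named no gene.

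Groups were fitted together with limma 3.58.1 in R 4.3.3 (moderated, two-sided tests with a variance trend, Benjamini-Hochberg over all probe sets tested in a comparison, threshold 0.05), checked on simulated data. Differences carry the SE of the fit, and levels the SD. Values on all arrays are given for members past a test against vector or in an F-test, and otherwise for the brightest member of each role group. Members and lists were chosen with earlier results of these data known. Promoters are RefSeq's (GRCm38.p6). Alternatives covered scaling, floor, filter, variance model, array weights, replicate number, the arrays in the fit and the labels' univariate F-test. Python 3.11.15, pandas 2.3.3, numpy 2.4.6 and matplotlib 3.10.9 were used.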

Additional observations from a re-analysis of the deposited data

Results flagged for a closer look

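In 5 comparisons of a member between C/EBP groups, limma's test of the difference itself passed the threshold, and each of them has C/EBPδ on 1 side. Mcm3 was higher in C/EBPδ than in C/EBPα by a log2 difference of 0.57 on the probe set 100062_at and 0.46 on 160496_s_at, and differed by -0.70 between C/EBPε and C/EBPδ on the first. Ccnd1 (94232_at) differed by -0.48 between C/EBPδ and C/EBPβ, and Cdt1 (161787_f_at) by -0.48 between C/EBPε and C/EBPδ. Each of these calls was lost without at least 1 single array.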

How the results depend on the processing

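Of the counts of called member probe sets, that in C/EBPδ was 0 in limma under all alternatives run. Leaving out 1 array at a time gave 2 to 5 across the 5 groups (6 with all arrays), 0 to 3 among the 4 C/EBPs (2), 0 to 3 in C/EBPα (3), 1 to 6 in C/EBPβ (5), 3 to 7 in C/EBPε (7) and 1 to 5 in pairs of C/EBPs (4). Of all probe sets, these fits called 13.1% to 16.5%, 6.66% to 11.1%, 10.7% to 14.9%, 5.36% to 10.0% and 10.9% to 16.6%, in that order, pairs left out. Across the 5 groups, quantile scaling and no scaling gave 10 each, no filter 3, no trend 2, array weights 17 and the univariate F-test 3, beside 21.6%, 20.8%, 8.24%, 15.2%, 35.1% and 14.2% of all probe sets called. Among the 4 C/EBPs, quantile, no and median ratio scaling gave 4 each, no trend 0, array weights 9 and the 4 groups alone 1, beside 14.6%, 14.1%, 12.5%, 8.93%, 28.9% and 9.69% of all. In pairs, quantile scaling gave 10, no scaling 8 and array weights 15. For pairs the share over all probe sets was computed in the main fit alone, so these counts cannot be set beside one. Quantile scaling gave 5 in C/EBPα (18.3% of all), and array weights gave 10 in C/EBPβ and 13 in C/EBPε (22.6% and 24.8%). With only the groups compared, C/EBPα, C/EBPβ and C/EBPε had 0, 1 and 0 (11.5%, 6.26% and 9.91% of all). Without the 5 arrays numbered 1, the counts were 2 across the groups, 1 among the C/EBPs, 1, 3 and 0 in C/EBPα, C/EBPβ and C/EBPε and 1 in pairs, with fewer arrays in the fit (10.2%, 6.04%, 9.58%, 5.19% and 10.3% of all, in that order, pairs left out). The causes of the other shifts were not tested. For called single members, 603 values under an alternative kept their side of the threshold and 209 lost the call. None of the differences between groups reversed, and the F-tests among these values have no direction.

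With the replicate block, the counts were 12 across the 5 groups, 5 among the C/EBPs, 5, 8 and 14 in C/EBPα, C/EBPβ and C/EBPε and 11 in pairs. Calls among all probe sets rose too, to 26.1%, 18.0%, 20.7%, 15.8% and 24.1%, pairs left out. As shares of the 41 probe sets, the counts lay above these across the 5 groups, in C/EBPβ and in C/EBPε. They lay below among the C/EBPs and in C/EBPα. The labels do not say what the array number marks, and the main fit leaves it out. Deviations from the group means correlated at 0.225 to 0.439 between arrays numbered 1 (median 0.355) and 0.0187 to 0.428 between those numbered 2 (median 0.298). The range was -0.069 to 0.124 between those numbered 3 (median 0.0538) and -0.428 to 0.245 between arrays of different numbers and groups (median -0.0937). Of 15 arrays, 13 correlated best with an array of their own number. Arrays numbered 1 or 2 thus deviated partly together and those numbered 3 hardly, so a pairing of all arrays was not established.

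With the 250 bases before the start alone, the cell cycle homology letters were in 38.9% of the genes of G2 and mitosis and 16.0% of all windows, and the E2F letters in 13.3% of those of G1 and S phase and 1.93% of all.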

Other observations

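In the fit with the array number as a block, added after seeing the data, limma's F-test of the number passed for 6 of the 41 member probe sets (14.6%), a share below the 16.6% of all probe sets. They were Cdk1 (adjusted p 0.00262), Kif11 (0.00582), Mcm7 (0.0171), Mcm2 (0.0246), Top2a (0.0290) and Cdt1 on 94024_at (0.0298). Top2a and this probe set of Cdt1 also passed a test between groups. Array 2 was the highest of its group in all 5 groups for Cdk1, Mcm2, Top2a and Cdt1 on 94024_at, as for 5.39% of all tested probe sets. The part of the median scaling in this was not tested.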
